A study of Mus musculus with 12 samples.

Results

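Mouse kidneys that had received busulfan followed by alginate oligosaccharides (AOS) were compared with untreated kidneys, and all genes were taken into the comparison by gene symbol. It compares 6 of the 12 RNA-seq libraries of the series, 3 a side. The kidneys with both agents came from animals given busulfan once at 40 mg/kg, after which AOS was dosed at 10 mg/kg over 5 weeks. The other groups placed the values and, in the shared fit of all 12 libraries, entered the estimate of the spread behind each p-value. Of these, 3 libraries came after busulfan alone, given once at 40 mg/kg, and 3 after AOS alone, at 10 mg/kg over 5 weeks. The control animals had no treatment, and no vehicle is named for them. All animals were of the strain that the labels write as IRC mouse. The labels give neither age nor sex, nor the interval between busulfan and the collection of the busulfan and control kidneys. They also do not say whether libraries of a group come from separate animals, so that a p-value measures only the spread between these libraries.

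Busulfan is an alkylating drug with a reactive group at each end, which joins bases of DNA to each other and blocks replication and transcription. In animal cells such lesions stabilise the transcription factor p53, which switches on genes for cell cycle arrest (Cdkn1a), for cell death (Bbc3, Bax, Fas), for DNA and nucleotide metabolism, and for its own removal (Mdm2). AOS are short sugar chains cut from the alginate of brown seaweed. Most epithelial cells of an adult kidney do not divide, and the proximal tubule, which takes up drugs and filtered solutes, is the segment known for injury by toxic agents.

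Each library held 13875942 to 14532720 estimated reads with both agents, against 13993958 to 14358657 in control, and a gene with no read in a library could lie at up to 0.206 to 0.216 CPM (counts scaled to one library size; the limit is 3 counts of the total). The tissue label reads "Cells", but the libraries had the kidney's own transcripts: all 35 proximal tubule markers were tested, and their summed level was 85391 to 93599 CPM with both agents and 91841 to 100730 CPM in control. The 3 libraries with both agents differed among themselves. Replicate 3 held hepatocyte transcripts (23 markers, 24541 CPM in sum, against 275 and 121 CPM in replicates 1 and 2, and 239 to 368 CPM in control). Replicate 1 stood apart in immediate early and heat shock genes, and replicates 2 and 3 in genes of the circadian clock, as described further on. Of the libraries used for comparison, busulfan replicate 3 held adrenal transcripts (12503 CPM in sum, against 57.3 and 64.7 CPM in the other busulfan libraries), and adipose markers were high in busulfan replicates 2 and 3, as described with the matrix genes. In whole tissue, fewer cells of a type and less RNA per cell cannot be told apart.

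In kidneys with both agents 6 of 14428 genes tested (0.0416%) rose against control and 0 fell, in edgeR's quasi-likelihood test at an adjusted p under 0.05. DESeq2, on the same genes, called 90 (63 higher and 27 lower), including all 6, and limma called 9, all higher, including all 6. The 6 called by edgeR were Ccng1, Eda2r, Phlda3, Exoc4, Plk2 and Ddias. All are on the p53 target list, which holds 48 of the 14428 genes tested. Exoc4 and Ddias were placed on it with earlier results of these data known, and the list as a whole was chosen with them known. Without all members so placed, 41 were tested and 4 called. Without correction 831 genes (5.76%) had p under 0.05 and were higher, and 611 (4.23%) were lower, which makes 1442 genes (9.99%), where 721 would pass by chance. The median log2 fold change over all genes was 0.00323. Of the genes with unadjusted p under 0.05, 423 were at least 2-fold higher and 45 at least 2-fold lower. Replicate 3 of both agents, with the hepatocyte transcripts, enters these counts. Without it 575 of 14642 genes were higher and 499 lower at an unadjusted p under 0.05, and the 2-fold counts were not taken.

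**Figure D1:**
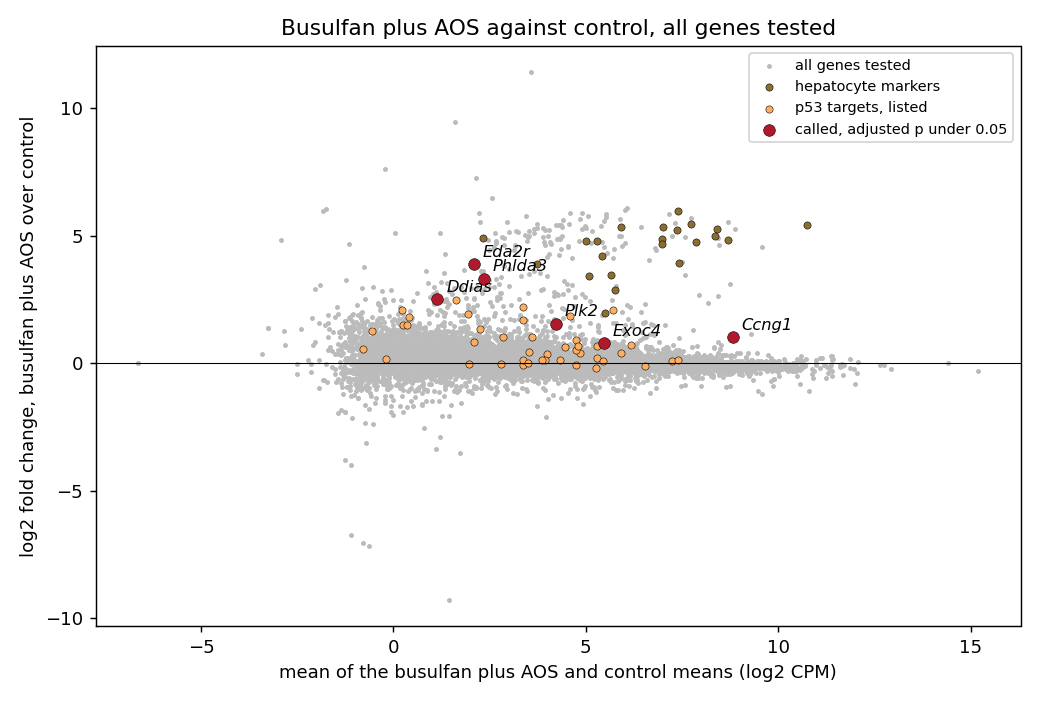
Log2 fold change of busulfan plus AOS over control (vertical axis) against the mean level in log2 CPM (horizontal axis) for the 14428 genes tested, each a grey point; hepatocyte markers are brown, listed p53 targets orange and the 6 called genes red. The called genes lie above 0 at levels from low (Ddias) to high (Ccng1), and the brown points form the cloud with the largest fold changes, which comes from 1 library.

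Ccng1 (cyclin G1, a p53-induced cyclin that brings a phosphatase to Mdm2; chromosome 11, 40748552 to 40755309 in GRCm38.p6) was the most abundant of the 6. Levels are given per length, as FPKM, the fragments per kilobase of transcript and per unit of library size. Its level was 192, 177 and 177 FPKM with both agents, against 77.8, 96.8 and 85.8 FPKM in control. The groups lay far apart, and the 3 libraries with both agents were within a narrow band. The gene was 2.06-fold higher (log2 fold change 1.04 ± 0.09 SE, adjusted p = 0.00262 in edgeR's test).

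Receptors and survival signalling gave the next pair. Eda2r (the receptor for ectodysplasin A2, related to the receptors of tumour necrosis factor; chromosome X, 97333837 to 97377234) stood at 1.89, 1.35 and 1.47 FPKM with both agents, against 0.08, 0.12 and 0.09 FPKM in control. Control kidneys had almost none of this transcript, and every library with both agents had far more. It was 14.7-fold higher (log2 fold change 3.88 ± 0.35 SE, adjusted p = 0.00262, edgeR). Phlda3, whose protein competes with the kinase Akt for membrane lipids (chromosome 1, 135766085 to 135769134), was at 9.23, 7.03 and 4.71 FPKM with both agents and at 0.69, 0.86 and 0.47 FPKM in control. The libraries with both agents spread more here than for Ccng1, without nearing the control values. Its log2 fold change was 3.33 ± 0.34 SE (adjusted p = 0.00686, edgeR).

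Exoc4 (a subunit of the exocyst, the complex that tethers secretory vesicles to the plasma membrane; chromosome 6, 33249090 to 33973979) had the smallest change of the 6 and a small spread. It stood at 15.2, 16.6 and 17 FPKM with both agents, against 8.75, 9.22 and 9.55 FPKM in control. The lowest library with both agents lay well above the highest control library. The gene was 1.73-fold higher (log2 fold change 0.79 ± 0.09 SE, adjusted p = 0.0112, edgeR). Exoc4 was placed on the p53 target list with earlier results of these data known, and so was Ddias.

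Plk2 (a polo-like kinase of the G1 phase and of centriole duplication; chromosome 13, 110395044 to 110400844) was at 9.65, 11.5 and 10 FPKM with both agents and at 2.65, 4.47 and 3.27 FPKM in control. The groups did not overlap. It was 2.94-fold higher (log2 fold change 1.55 ± 0.21 SE, adjusted p = 0.0447, edgeR). Ddias, named as a suppressor of apoptosis after DNA damage (chromosome 7, 92857525 to 92874917), was at 0.84, 1.21 and 1.32 FPKM with both agents, against 0.13, 0.17 and 0.28 FPKM in control. All 3 libraries with both agents exceeded control, at a low level throughout. Its log2 fold change was 2.50 ± 0.34 SE (adjusted p = 0.0447, edgeR).

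The 6 calls did not rest equally on all libraries. Ccng1 and Eda2r were called in 13 of 14 alternatives, Phlda3 in 12, Exoc4 in 9, Plk2 in 7 of 14, and Ddias in 4 of 13. A fit on the 6 compared libraries alone, with fewer degrees of freedom, called 0 genes (1514 at unadjusted p under 0.05), with adjusted p of 0.0597 for Eda2r and 0.0673 for Ccng1. Without control replicate 1 the count was 2, and without replicate 1 of both agents it was 25, including all 6.

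**Figure D2:**
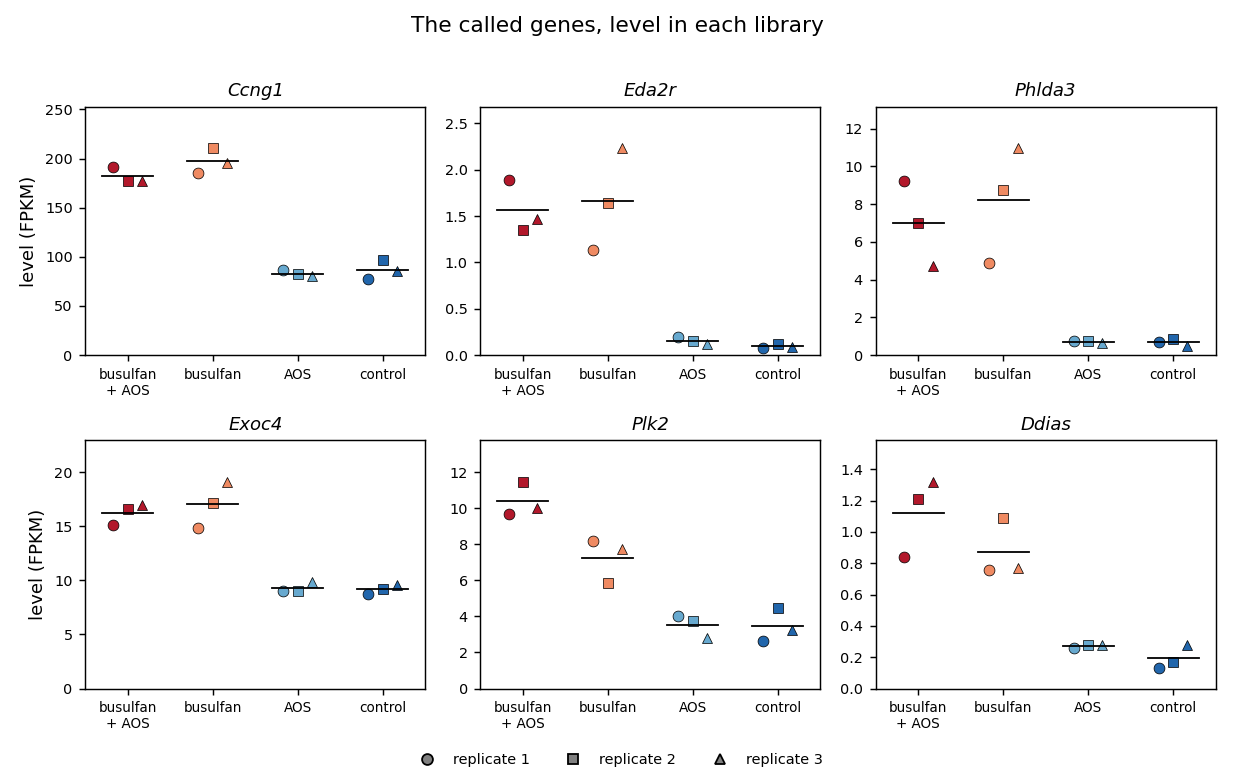
Level in FPKM (vertical axis from 0) of the 6 called genes in each library of the 4 groups; points are libraries, shaped by replicate number, and bars are group means. In every panel the busulfan plus AOS libraries lie above the AOS and control libraries, and in each panel except that of Plk2 they overlap the busulfan libraries.

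With busulfan alone the same 6 genes had values close to those with both agents. Ccng1 was at 192, 177 and 177 FPKM with both agents, against 186, 210 and 195 FPKM with busulfan alone, a log2 fold change of -0.08 ± 0.09 SE (unadjusted p = 0.375, edgeR). Eda2r was at 1.89, 1.35 and 1.47 FPKM with both agents and at 1.13, 1.64 and 2.23 FPKM with busulfan alone, which overlap. Plk2 was the one gene of the 6 whose groups did not overlap: its 9.65, 11.5 and 10 FPKM with both agents stood above the 8.17, 5.86 and 7.74 FPKM with busulfan alone, without passing the test (log2 fold change 0.55 ± 0.20 SE, adjusted p = 0.508, edgeR). In all, 0 of 14428 genes (0%) were called between both agents and busulfan alone by edgeR, with 1255 genes (8.7%) at an unadjusted p under 0.05, and 24 genes were called by DESeq2. Against AOS alone 10 genes were called (0.0693%), 9 higher with both agents (0.0624%) and 1 lower (0.00693%). They include Ccng1, Eda2r, Phlda3, Exoc4 and Plk2, with Inka2, Plcd4, Mgmt and Tpcn1 (an endolysosomal channel, named here after its values were seen) also higher, and Asxl3 lower. These comparisons share the libraries with both agents, so they are not independent of the one against control.

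The promoters of the called genes were searched for the p53 half-site, the palindromic motif of 10 bases that p53 binds in pairs. The search covered the 250 bases before the RefSeq start site (GRCm38.p6), and the motif reads the same on both strands. Of 32851 such windows 7.13% hold it. Counted by gene, 817 of 11040 tested genes with such a window (7.4%) hold it in at least 1. A half-site lay in the windows of Ccng1 and Exoc4, 2 of the 6 called genes, and in none of the windows of Eda2r, Phlda3, Plk2 and Ddias. Cdkn1a, the best known p53 target, has 2 of them in the window of its upstream start site. The window of a further RefSeq start site, within the annotated gene, has 0. The parts of the windows that lie outside the annotated genes are shown for these 3 genes and for Eda2r, as the gene with the largest change and no match; half-sites are in capitals, sequences run 5′ to 3′ on the gene's strand. They are chr11:40755310-40755536 on the minus strand for Ccng1, chr6:33248878-33249089 on the plus strand for Exoc4, chr17:29090729-29090978 on the plus strand for Cdkn1a and chrX:97377235-97377459 on the minus strand for Eda2r.
Ccng1: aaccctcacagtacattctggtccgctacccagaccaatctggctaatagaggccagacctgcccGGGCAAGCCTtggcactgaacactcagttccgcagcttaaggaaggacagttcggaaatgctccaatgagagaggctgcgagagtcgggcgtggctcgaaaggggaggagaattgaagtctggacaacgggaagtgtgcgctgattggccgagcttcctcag
Exoc4: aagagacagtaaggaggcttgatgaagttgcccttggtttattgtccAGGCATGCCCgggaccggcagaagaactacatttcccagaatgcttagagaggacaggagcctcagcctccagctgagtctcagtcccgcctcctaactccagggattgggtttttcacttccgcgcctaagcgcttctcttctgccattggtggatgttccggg
Cdkn1a: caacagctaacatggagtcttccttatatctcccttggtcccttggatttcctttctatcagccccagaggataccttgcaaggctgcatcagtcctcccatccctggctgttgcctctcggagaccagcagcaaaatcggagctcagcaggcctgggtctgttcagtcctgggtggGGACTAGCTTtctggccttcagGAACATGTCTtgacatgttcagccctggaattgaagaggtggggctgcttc
Eda2r: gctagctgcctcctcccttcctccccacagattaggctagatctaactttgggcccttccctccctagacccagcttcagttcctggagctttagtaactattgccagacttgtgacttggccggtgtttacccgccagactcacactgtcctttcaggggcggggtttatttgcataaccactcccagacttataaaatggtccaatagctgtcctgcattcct
The half-site of Ccng1 began 185 bases and that of Exoc4 203 bases before the start site. Those of Cdkn1a began 73 and 51 bases before its upstream start site. A match describes letters and not binding, and a window without one says nothing of sites elsewhere in the gene.

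Of the 14 uncalled genes among the 20 of lowest p, 8 were on the p53 target list, 5 of which had been placed there with earlier results of these data known. Inka2 (an inhibitor of the kinase Pak4) was at 1.19, 1.17 and 1.04 FPKM with both agents, against 0.2, 0.2 and 0.19 FPKM in control (log2 fold change 2.49 ± 0.37 SE, adjusted p = 0.0683, edgeR). Zmat3, an RNA-binding zinc finger protein, was at 4.1, 3.3 and 3.1 FPKM with both agents and at 2.04, 2.3 and 2.19 FPKM in control (adjusted p = 0.112). Neither gene's groups overlapped. Aen, an apoptosis-enhancing nuclease, stood at 26.2, 20.4 and 18.2 FPKM with both agents, against 12.2, 15.5 and 12.8 FPKM in control (adjusted p = 0.177). Map3k20, a kinase that answers stalled ribosomes, stood at 4.51, 3.5 and 3.79 FPKM with both agents, against 1.53, 1.91 and 1.88 FPKM in control (adjusted p = 0.132).

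The list of NRF2 targets and glutathione enzymes, which detoxify reactive chemicals, had 24 of 39 genes higher (50.6% of all genes were) and a median log2 fold change of 0.13. At an unadjusted p under 0.05, 7 were higher and 2 lower (5.76% and 4.23% of all genes). Its groups lay apart for 7 genes in the higher and 6 in the lower direction (8.64% and 8.47% of all genes). Without replicate 3 of both agents the counts by p were 4 and 0. Mgmt, which removes alkyl groups from guanine in DNA, is on the p53 and DNA repair lists and not on this one. It was at 12.6, 13 and 14.1 FPKM with both agents, against 7.43, 5.31 and 6.42 FPKM in control (log2 fold change 1.02 ± 0.18 SE, adjusted p = 0.154, edgeR). Ephx1, the microsomal epoxide hydrolase, is on both the NRF2 and the p53 list. It was at 52.9, 41.1 and 63.5 FPKM with both agents, against 14.7, 12.2 and 9.59 FPKM in control (log2 fold change 2.10 ± 0.35 SE, adjusted p = 0.124, edgeR). Both genes had every library with both agents above every control library. Plcd4, a phospholipase C listed only with the p53 targets, stood at 2.79, 1.58 and 2.43 FPKM with both agents and at 0.69, 0.52 and 0.59 FPKM in control (adjusted p = 0.11). Inka2, Mgmt, Ephx1, Map3k20 and Plcd4 too were listed with earlier results known.

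Cdkn1a, which codes for the cell cycle inhibitor p21, was at 13.4, 5.56 and 7.39 FPKM with both agents, at 14.1, 20.5 and 20.1 FPKM with busulfan alone, and at 1.98, 3.02 and 3.11 FPKM in control. The libraries with both agents lay between those of the other groups, with replicate 1 close to the lowest busulfan library. Against control its log2 fold change was 1.68 ± 0.31 SE (adjusted p = 0.189, edgeR), and against busulfan alone it was -1.0 ± 0.30 SE (unadjusted p = 0.00681, adjusted p = 0.477, edgeR), so that neither passed the test. Mdm2, the ubiquitin ligase that removes p53, was at 26.5, 20.3 and 20.5 FPKM with both agents, against 16.5, 18.4 and 16 FPKM in control (adjusted p = 0.36). Its groups did not overlap, though the gap was small.

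Over the whole list, 42 of 48 p53 targets tested were higher with both agents than in control, where 50.6% of all genes were. Their median log2 fold change was 0.67, beside 0.00323 over all genes. Of the 48, 28 had an unadjusted p under 0.05 and were higher (5.76% of all genes did), 0 were lower at that level, and 29 had all libraries with both agents above all control libraries, where 8.64% of all genes did. Without the members named above as placed with earlier results known, 41 remained. Of these 35 were higher, 21 had an unadjusted p under 0.05 and were higher, and the median was 0.51. The list as a whole was chosen with earlier results known, so these 41 are not an independent check. The median of the 48 was 0.64, 0.61 and 0.51 in replicates 1, 2 and 3 with both agents, on the scale of log2(CPM + 0.5) against the control mean. Leaving out either replicate 1 or replicate 3 with both agents left 27 and 28 members at that level. Against busulfan alone 25 of the 48 were higher (47.8% of all genes), and the median log2 fold change was 0.00346, beside -0.0104 over all genes. The list is thus uneven: Trp53 itself (log2 fold change -0.06), Ddb2 (0.01), Pidd1 (-0.01) and Rrm2b (-0.17) did not pass at an unadjusted p under 0.05 and lay near or below 0; these 4 were picked after their values were seen.

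**Figure D3:**
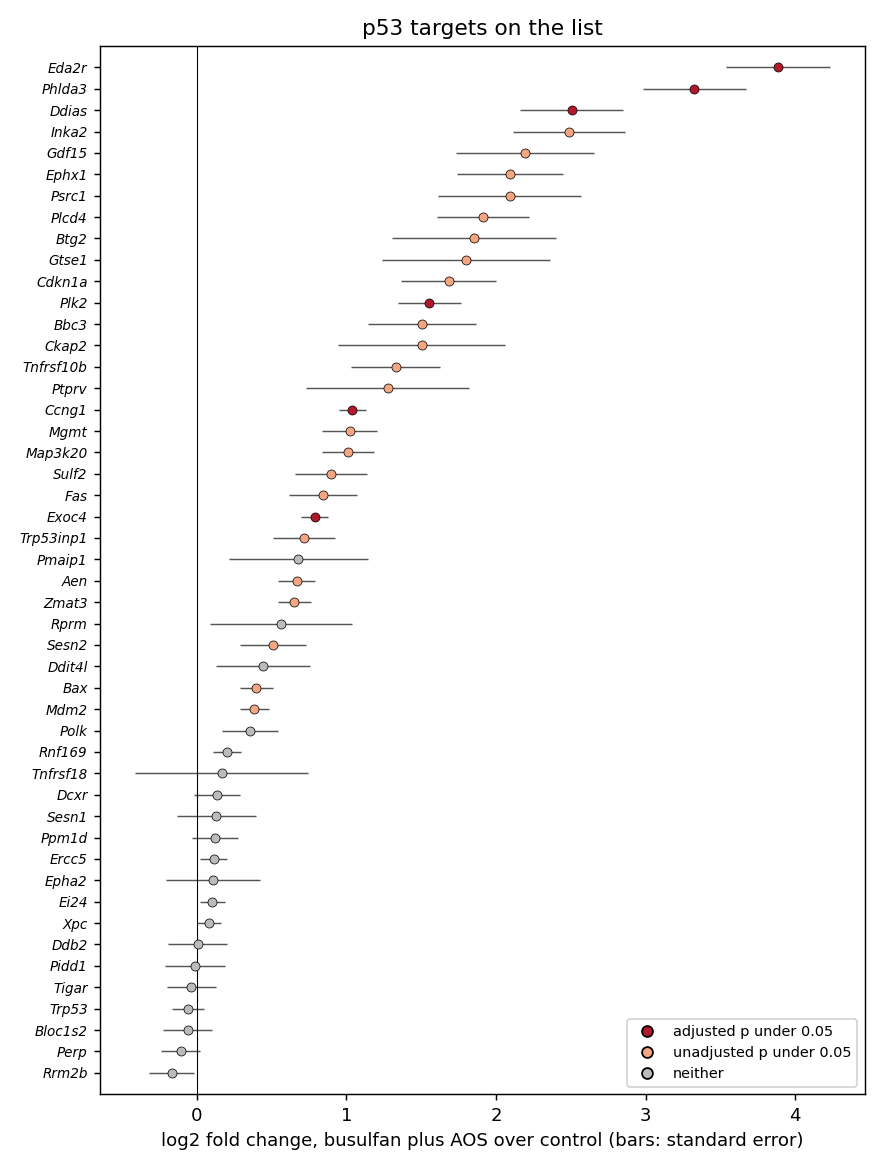
Log2 fold change of busulfan plus AOS over control (horizontal axis, bars are SE) for the 48 listed p53 targets tested, sorted by value; red points passed the adjusted threshold, orange points had an unadjusted p under 0.05 and grey points neither. The points run from Eda2r at 3.88 to Rrm2b at -0.17, and 42 lie above 0.

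Genes for the repair of DNA itself were spread around 0. Of 49 tested, 20 were higher with both agents, the median log2 fold change was -0.03, and 2 had an unadjusted p under 0.05, Mgmt and Ogg1 (with 1 library left out, 1 to 4 higher and 0 to 2 lower). These 2 are 4.08% of the list, where 5.76% of all genes were higher at that level. Ogg1, the glycosylase for oxidised guanine, was at 2.61, 3.83 and 4.31 FPKM with both agents, against 3.04, 1.81 and 2.22 FPKM in control (adjusted p = 0.461). Its groups overlapped. In the Bcl2 and caspase list 20 of 27 were higher, with 7 higher and 2 lower at an unadjusted p under 0.05 (4 and 0 without replicate 2 of both agents). The shares over all genes were 5.76% higher and 4.23% lower. Bbc3 (Puma, which frees the killer proteins Bax and Bak) was at 0.69, 1.09 and 1.32 FPKM with both agents, against 0.24, 0.39 and 0.43 FPKM in control (adjusted p = 0.352). Bax stood at 48.3, 47.6 and 36.6 FPKM with both agents, against 35.8, 31.6 and 31 FPKM in control (adjusted p = 0.434). Both genes had groups that did not overlap, and neither passed the test.

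Transcripts of the extracellular matrix were a second large group above control, with 0 of them called by edgeR, 2 by DESeq2 (Mmp2 and Thbs1, at adjusted p of 0.0172 and 0.0307) and 0 by limma. Of 45 tested, 43 were higher with both agents, the median log2 fold change was 0.65, and 15 had an unadjusted p under 0.05, all of them higher. At that level 5.76% of all genes were higher. All libraries with both agents exceeded all control libraries for 35 of the 45 (8.64% of all genes). Mmp2, a gelatinase, was at 3.59, 4.05 and 3.24 FPKM with both agents, against 1.43, 1.19 and 0.71 FPKM in control (log2 fold change 1.68 ± 0.41 SE, adjusted p = 0.36, edgeR). Col1a1, the main chain of fibrillar collagen, was at 3.94, 4.97 and 4.04 FPKM with both agents, against 1.84, 2.44 and 1.88 FPKM in control (adjusted p = 0.486). In both genes the control libraries lay wholly below. Thbs1, thrombospondin, stood at 10.1, 6.17 and 5.42 FPKM with both agents, against 4.02, 3.47 and 3.35 FPKM in control (adjusted p = 0.381), and Bgn, biglycan, at 60.4, 54.5 and 50 FPKM, against 32.4, 44 and 27 FPKM in control (adjusted p = 0.434).

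The matrix list was even over the libraries with both agents, with medians of 0.64, 0.63 and 0.58, while the 3 control libraries ran from -0.28 in replicate 3 to 0.16 in replicate 2. Without control replicate 3 its median log2 fold change was 0.55 and 8 members had an unadjusted p under 0.05; without control replicate 1 the count was 7. It was 34 in the fit on the 6 compared libraries alone and 25 without busulfan replicate 3 and replicate 3 of both agents. Markers of fibroblasts, pericytes and smooth muscle were higher alongside: 16 of 18 were higher, with a median of 0.50. At an unadjusted p under 0.05, 4 were higher (5.76% of all genes). The count was 0 without control replicate 3, 2 without replicate 1 or 2 of both agents and 1 without replicate 3 of both agents. Their summed level was 180 to 198 CPM with both agents, against 121 to 155 CPM in control. Pdgfra, the receptor that marks fibroblasts, was at 1.57, 1.91 and 1.62 FPKM with both agents, against 1.01, 1.2 and 0.56 FPKM in control (adjusted p = 0.45). The part of these cells in the matrix values was not tested. Against busulfan alone 6 of the 45 matrix genes were higher with both agents and the median log2 fold change was -0.39, with busulfan replicate 3, the library with adrenal transcripts, at 12.4 FPKM of Col1a1 beside 1.93 and 5.76 FPKM in the other busulfan libraries. The matrix medians of the busulfan libraries were 0.03, 0.93 and 1.54 relative to the control mean, and those of the adipose markers were -0.31, 3.26 and 4.37, on the scale of log2(CPM + 0.5). Against busulfan alone 12 of 13 adipose markers were lower with both agents, by a median log2 fold change of -2.76, and their summed level was 2879 to 3201 CPM with both agents, against 3397, 4622 and 4466 CPM with busulfan alone. These markers include Pck1, listed as a proximal tubule marker too, so their sum is not of adipose transcripts alone. Their part in the lower matrix values was not tested.

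Cell division genes were also above control in most members. Of 40 tested, 36 were higher with both agents, the median log2 fold change was 0.52, and 10 had an unadjusted p under 0.05, all of them higher. Over all genes 5.76% were higher at that level. Tpx2, a spindle assembly factor, was at 0.83, 0.71 and 0.68 FPKM with both agents, against 0.4, 0.33 and 0.28 FPKM in control (log2 fold change 1.02 ± 0.28 SE, adjusted p = 0.434, edgeR). Mki67, the proliferation marker, was at 0.96, 1.15 and 1.12 FPKM with both agents, against 0.55, 0.76 and 0.64 FPKM in control (adjusted p = 0.566). The groups were apart in both genes at levels near 1 FPKM. Prc1 and Ube2c, of cytokinesis and of mitotic exit, had log2 fold changes of 1.27 ± 0.40 and 1.29 ± 0.48 SE, and neither passed the test. The count at an unadjusted p under 0.05 was 3 without replicate 2 of both agents, 6 without control replicate 1 and 4 without control replicate 3.

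Of the tubular injury list 27 of 29 were higher, with a median of 0.33 on the log2 scale. At an unadjusted p under 0.05, 8 were higher (5.76% of all genes) and 0 lower. Krt18, a keratin of simple epithelia, was at 9.89, 8.94 and 17.9 FPKM with both agents, against 5.57, 5.9 and 5.2 FPKM in control (log2 fold change 1.13 ± 0.28 SE, adjusted p = 0.381, edgeR). Replicate 3, with the hepatocyte transcripts, was the highest. The list also holds fibrinogen chains, which are hepatocyte markers too, and without that library 7 of 30 stood at an unadjusted p under 0.05. Without control replicate 3 the count was 4 of 30, and without both replicate 3 of both agents and busulfan replicate 3 it was 13 of 29. Havcr1 (kidney injury molecule Kim-1) was at 2.03, 2.51 and 2.44 FPKM with both agents, against 1.35, 1.69 and 1.09 FPKM in control (adjusted p = 0.45). Lcn2 (neutrophil gelatinase-associated lipocalin) overlapped, at 1.97, 4.12 and 1.73 FPKM with both agents and 1.29, 2.01 and 0.59 FPKM in control (adjusted p = 0.576).

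Inflammatory lists differed by library. In the NF-kB and chemokine list 21 of 24 were higher, 7 of them at an unadjusted p under 0.05 (5.76% of all genes). The list had 3 such genes without control replicate 1, 4 without replicate 1 of both agents and 3 without replicate 3 of both agents. Its lowest p belonged to Tnfaip3 (A20, an enzyme that shuts off NF-kB signalling), at 1.63, 1.66 and 1.55 FPKM with both agents, at 1, 0.88 and 1.28 FPKM with busulfan alone, and at 0.89, 0.83 and 0.89 FPKM in control. Its 3 libraries with both agents lay above every other library of the series, and the log2 fold change against control was 0.85 ± 0.17 SE (adjusted p = 0.225, edgeR). Of the interferon-stimulated list 38 of 41 were higher, but the median per library was -0.10, 0.29 and 0.86 in replicates 1, 2 and 3. Without replicate 3 only 24 of 42 were higher and the median log2 fold change was 0.18.

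**Figure D4:**
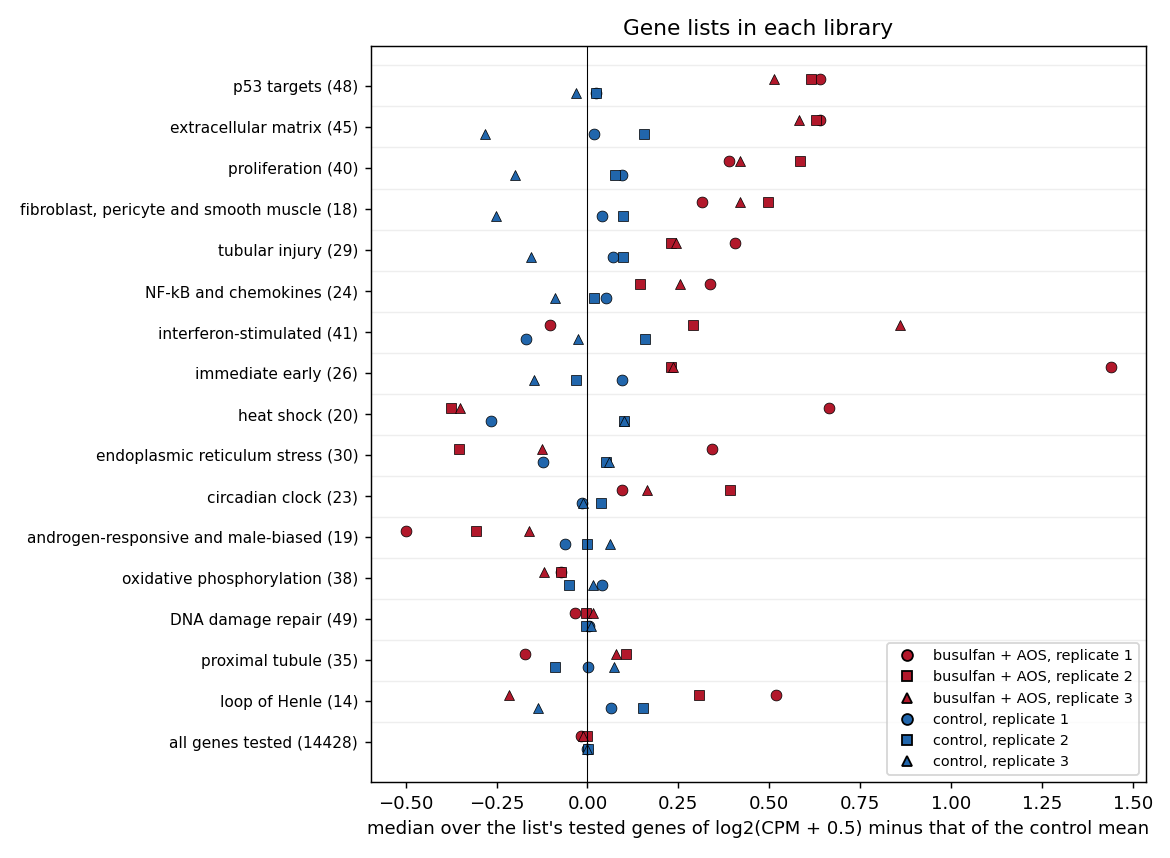
Median over each gene list (rows, number of genes tested in brackets) of log2(CPM + 0.5) minus that of the control mean (horizontal axis), for the 3 busulfan plus AOS libraries in red, above, and the 3 control libraries in blue, below; shapes are replicate numbers. The red points of the p53 list lie at 0.51 to 0.64 and those of the matrix list at 0.58 to 0.64, while immediate early and heat shock genes have replicate 1 far from the other red points and interferon-stimulated genes have replicate 3 there.

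Replicate 1 with both agents stood far above the other 2 with both agents in immediate early genes. The sum of the immediate early genes was 1639 CPM in it, beside 473 and 418 CPM in replicates 2 and 3, against 415 to 448 CPM in control. With busulfan alone it was 436, 591 and 1307 CPM in replicates 1, 2 and 3, so that 1 library there was high too. Egr1, a zinc finger factor switched on within minutes of a stimulus, was at 114, 10.5 and 6.78 FPKM with both agents, against 2.22, 1.61 and 0.88 FPKM in control (log2 fold change 4.74 ± 1.17 SE, adjusted p = 0.36, edgeR). All 3 exceeded control, replicate 1 by far the most. Junb was at 30.9, 9.51 and 8.84 FPKM with both agents, against 4.38, 3.9 and 5.82 FPKM in control (adjusted p = 0.434).

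Heat shock genes separated the same library. Their sum was 13635 CPM in replicate 1, beside 7499 and 7047 CPM in replicates 2 and 3, against 7658 to 9595 CPM in control. With busulfan alone it was 9935, 11969 and 11287 CPM, above every control library. Hspa1a, the inducible Hsp70, was at 43.6, 2.32 and 0.71 FPKM with both agents, against 1.64, 2.08 and 2.35 FPKM in control, so that the groups overlapped. With replicate 1 its log2 fold change was 2.88 ± 1.22 SE, and without it the value was -0.44. Of the 20 heat shock genes 12 were higher than control with replicate 1 and 3 without it, when 10 had an unadjusted p under 0.05 in the lower direction (7.15% of all genes in that fit). Without replicate 1 the immediate early list still had 20 of 26 higher, with 3 higher at an unadjusted p under 0.05 in place of 9. The shares over all genes in these fits were 7% and 5.76%.

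Clock genes split the libraries the other way, with replicates 2 and 3 apart from replicate 1. Dbp, a rhythmic activator, was at 1.12, 79.3 and 58.4 FPKM with both agents, at 1.57, 0.99 and 12.5 FPKM with busulfan alone, and at 2.4, 1.7 and 1.04 FPKM in control. Replicate 1 lay within the control range and the other 2 far above it. Ciart, a repressor of the clock's activators, was at 1.33, 11.4 and 5.61 FPKM with both agents, against 0.81, 0.8 and 0.55 FPKM in control (log2 fold change 2.93 ± 0.67 SE, adjusted p = 0.298, edgeR). Per3 was at 0.48, 3.25 and 1.95 FPKM with both agents, against 0.33, 0.6 and 0.58 FPKM in control (adjusted p = 0.438).

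Further clock genes, chosen after their values were seen, went in the same split. Arntl (Bmal1, the activator that pairs with Clock) was at 16.4, 3.02 and 2.75 FPKM with both agents, against 13.6, 15.3 and 14.1 FPKM in control. Nr1d1 (Rev-erb alpha, which represses Arntl) was at 7.36, 53.1 and 45.6 FPKM with both agents, against 4.16, 1.77 and 6.67 FPKM in control. Arntl was thus low in the libraries in which Nr1d1 and Dbp were high. The labels give no time of day for the collection, and its part was not tested. Over the list 10 of 23 genes were higher and 3 lower at an unadjusted p under 0.05 (6 and 1 without control replicate 1). Of all genes 5.76% were higher and 4.23% lower at that level. Without replicate 1, 5 clock genes were among the 25 called by edgeR, 2 higher and 3 lower. Bhlhe41 was the member of lowest p, at 0.99, 1.54 and 1.13 FPKM with both agents, against 0.44, 0.72 and 0.48 FPKM in control (adjusted p = 0.274), and its groups did not overlap.

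**Figure D5:**
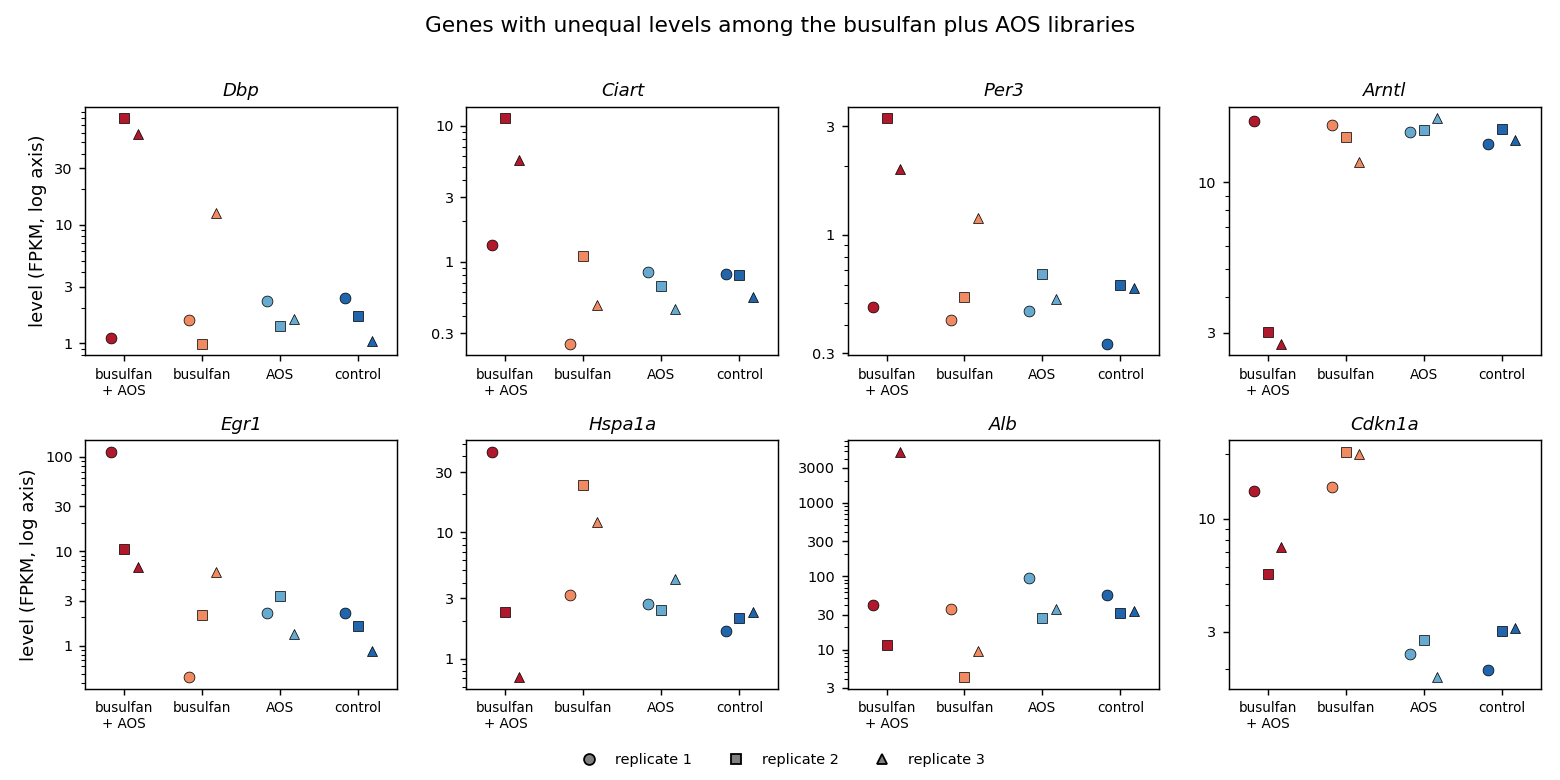
Level in FPKM (vertical log axis) of 8 genes in each library of the 4 groups; points are libraries, shaped by replicate number. Dbp, Ciart and Per3 are high and Arntl is low in busulfan plus AOS replicates 2 and 3, Egr1 and Hspa1a are highest in replicate 1, Alb is at 4955 FPKM in replicate 3, and Cdkn1a lies below the busulfan libraries and above the control libraries.

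All 22 hepatocyte markers tested were higher with both agents at an unadjusted p under 0.05, with a median log2 fold change of 4.81, and for 0 of them did the groups lie apart. Alb, serum albumin, was at 40, 11.6 and 4955 FPKM with both agents, against 56.2, 31.7 and 33.1 FPKM in control. The other 2 libraries lay within or below the control range. Without replicate 3 the log2 fold change of Alb was -0.71, and 1 of 22 markers was higher. Mgst1, a microsomal glutathione transferase, had the same single high library, at 45.8, 48.3 and 456 FPKM with both agents, against 37.7, 41.4 and 32 FPKM in control.

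Of the genes lower with both agents than in control, 0 were called by edgeR (611 at an unadjusted p under 0.05), 27 by DESeq2 and 0 by limma. Asxl3, a partner of the Polycomb deubiquitinase Bap1, had the lowest p among lower genes, at 0.5, 0.44 and 0.42 FPKM with both agents, at 0.61, 0.67 and 0.64 FPKM with busulfan alone, at 0.96, 0.84 and 0.99 FPKM with AOS alone, and at 0.93, 0.78 and 0.78 FPKM in control. The libraries with both agents were the 3 lowest of the series. Its log2 fold change was -0.88 ± 0.13 SE against control (adjusted p = 0.0683, edgeR) and -0.99 against AOS alone (adjusted p = 0.0264, edgeR), so that it passed the test against AOS alone and not against control. The call against AOS alone was lost without any 1 AOS library, without replicate 2 or 3 of both agents, with the replicate number as a block, under limma, in the fit on the 2 compared groups and without both replicate 3 of both agents and busulfan replicate 3.

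Genes with higher levels in male kidneys were mostly lower. Of 19 tested, 17 were lower with both agents, with a median log2 fold change of -0.29, and 9 had all libraries with both agents below all control libraries (8.47% of all genes). Odc1 (ornithine decarboxylase, the androgen-responsive first enzyme of polyamine synthesis) was at 401, 418 and 606 FPKM with both agents, against 732, 1017 and 1210 FPKM in control (log2 fold change -1.07 ± 0.33 SE, adjusted p = 0.438, edgeR). Cyp4a12a, which makes the lipid mediator 20-HETE, was at 244, 243 and 357 FPKM with both agents, against 523, 450 and 595 FPKM in control (adjusted p = 0.438). Neither gene's groups overlapped. Kap, the androgen-regulated kidney protein and the most abundant transcript here, was at 72849, 74043 and 68415 FPKM with both agents, against 94262, 83389 and 82237 FPKM in control (adjusted p = 0.687).

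Female-biased genes did not shift as a list: of 12 tested, 8 were higher and 4 lower, where 50.6% of all genes were higher. Their median was 0.09 on the log2 scale. By library it was 0.11, -0.03 and 0.15 in replicates 1, 2 and 3 with both agents, as log2(CPM + 0.5) against the control mean. Without control replicate 3 the counts were 6 higher and 6 lower. At an unadjusted p under 0.05, 3 were higher and 0 lower, and the 2 genes that follow were among these 3. Hao2, a peroxisomal hydroxyacid oxidase, was at 565, 385 and 405 FPKM with both agents, against 191, 163 and 240 FPKM in control (log2 fold change 1.15 ± 0.28 SE, adjusted p = 0.357, edgeR). Prlr, the prolactin receptor, was at 5.67, 3.18 and 6.03 FPKM with both agents, against 0.43, 0.49 and 0.49 FPKM in control (log2 fold change 2.93 ± 0.84 SE, adjusted p = 0.434, edgeR). In both genes every library with both agents was above control. With busulfan alone Prlr was at 0.95, 0.68 and 5.41 FPKM.

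Of 38 oxidative phosphorylation genes 34 were lower with both agents, by a median log2 fold change of -0.08. All libraries with both agents lay below all control libraries for 12 of the 38 (8.47% of all genes), on the scale of CPM, and 1 gene had an unadjusted p under 0.05. That gene was Cycs, cytochrome c, at 600, 523 and 551 FPKM with both agents, against 583, 695 and 787 FPKM in control (adjusted p = 0.45). In FPKM its groups overlapped. The cytosolic ribosomal protein genes had 31 of 50 higher and a median of 0.02.

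Proximal tubule markers were near their control levels as a list. Most markers of some later segments were higher, with list medians below the control mean in replicate 3 of both agents. The proximal tubule list had 21 of 35 higher and a median log2 fold change of 0.05, and the loop of Henle list 12 of 14 with a median of 0.30. Of the loop of Henle list 0 were higher and 1 lower at an unadjusted p under 0.05. Its medians were 0.52, 0.31 and -0.22 in replicates 1, 2 and 3 with both agents, on the scale of log2(CPM + 0.5) against the control mean. Principal cell markers had 12 of 13 higher (median 0.22) and intercalated cell markers 13 of 15 (median 0.14), where 50.6% of all genes were higher. In replicates 1, 2 and 3 with both agents the principal cell medians were 0.45, 0.17 and -0.10 on the same scale. Those of intercalated cells were 0.30, 0.21 and -0.10. Without replicate 1 of both agents 9 of 13 and 9 of 15 were higher, with medians of 0.04 and 0.03. Slc34a1, the proximal phosphate transporter, was at 2273, 2816 and 2376 FPKM with both agents, against 2876, 2111 and 2730 FPKM in control (adjusted p = 0.925). Umod, the uromodulin of the thick ascending limb, was at 1457, 1318 and 793 FPKM with both agents, against 1005, 1125 and 725 FPKM in control (adjusted p = 0.836). Both overlapped. Ren1, renin, was at 72.2, 84.2 and 68.4 FPKM with both agents, against 66.9, 57.4 and 42.3 FPKM in control (adjusted p = 0.461).

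Some genes outside the lists were among the 20 of lowest p. Piezo1, a mechanosensitive ion channel, was at 12.8, 14.4 and 10.8 FPKM with both agents, against 8.1, 9.02 and 6.72 FPKM in control (log2 fold change 0.72 ± 0.10 SE, adjusted p = 0.0503, edgeR). Gas6, the ligand of the Axl and Mertk receptors, was at 191, 208 and 155 FPKM with both agents, against 120, 107 and 102 FPKM in control (adjusted p = 0.112). Both had groups that did not overlap. Rgl2, an exchange factor for Ral, was at 0.69, 0.41 and 0.68 FPKM with both agents, at 0.54, 0.43 and 0.51 FPKM with AOS alone, at 0.25, 0.51 and 0.3 FPKM with busulfan alone, and at 0.15, 0.15 and 0.13 FPKM in control (adjusted p = 0.138). The gene model BGIG10090_47845, which has no other name in the files, was at 46.8, 17.4 and 9.5 FPKM with both agents, against 2.12, 2.84 and 3.49 FPKM in control (adjusted p = 0.112), and BGIG10090_46974 at 7.41, 4.57 and 4.23 FPKM, against 1.08, 1.1 and 0.8 FPKM in control (adjusted p = 0.177).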

How the data were processed

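Kidney RNA was sequenced in 12 libraries, 3 in each of 4 groups, assigned by title. The submitters' processing notes name the build mm10; which aligner and which quantification tool were used is not given in these sources. For 19261 genes the authors deposited unscaled estimated counts (76.8% to 78.8% whole within 0.005); decimals arise where a tool divides ambiguous reads among transcripts, so that close paralogs are uncertain. They also deposited levels taken as FPKM from their ratio to the count and library total. As no strand is stated, reads of overlapping or antisense genes cannot be separated.

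Rounded counts entered edgeR 4.0.16 (R 4.3.3, TMM scaling, filterByExpr, quasi-likelihood). All 12 libraries entered 1 model with a mean per group and no covariates (8 residual degrees of freedom). P-values are two-sided, adjusted by the Benjamini-Hochberg method over the 14428 genes tested. Any adjusted p in the text is from this fit unless another fit or tool is named with it. DESeq2 1.42.0, limma 3.58.1 on log2(FPKM + 1), other scaling, filters, thresholds and left-out libraries were alternatives. The fit was checked on simulated counts. Limits for a count of 0 cover counting error only.

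Genes named were those called with groups apart, then those of lowest p up to 20, up to 4 members of lowest p per list with a mean of at least 1 CPM, and 13 reference genes. The 40 lists, the comparison and its members were chosen with earlier results of these data known. Promoters are RefSeq's, and gene positions are from RefSeq on GRCm38.p6, counted from 1. Same-numbered libraries did not deviate together (correlations of -0.18, 0.03 and -0.03), so numbers were not used as pairs. Some genes that this rule names are not reported here.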

Additional observations from a re-analysis of the deposited data

How the results depend on the processing

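The count of 6 genes against control stayed within 1.5 times under limma (9), RLE scaling (7), testing without a filter (5) or from 5 CPM in 3 libraries (6), an adjusted p of 0.1 (9), at least 2-fold (5) and without both busulfan replicate 3 (adrenal transcripts) and replicate 3 of both agents (hepatocyte transcripts) (6); busulfan replicate 2, with high adipose markers, stayed in. DESeq2 called 90 genes against control, 24 against busulfan alone and 89 against AOS alone. A fit on only the 2 compared groups called 0 against control, 0 against busulfan alone and 1 against AOS alone. Leaving out 1 library gave 2 to 25 against control, 0 to 26 against busulfan alone (3 without busulfan replicate 1, 1 without busulfan replicate 3, 26 without replicate 1 of both agents) and 1 to 25 against AOS alone. Against AOS alone the count was 21 at an adjusted p of 0.1 and 6 without those 2 libraries, which gave 1 against busulfan alone. With the replicate number as a block the counts were 5, 0 and 4; the numbers carry no known pairing.

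Signs reversed for 7 named genes, none of them called. Leaving out 1 library moved the log2 fold change between -0.18 and 0.021 for Slc34a1, -0.44 and 3.44 for Hspa1a (lowest without replicate 1 of both agents) and, with the lowest values without replicate 3 of both agents, between -0.71 and 5.997 for Alb, -0.24 and 2.79 for Iigp1, -0.46 and 5.92 for Fabp1, -0.45 and 5.93 for Hpx, and -0.55 and 5.93 for Fgg. Without replicate 3 of busulfan and of both agents these 5 were at -0.70, -0.24, -0.46, -0.45 and -0.55. The cause of the differences between settings was not tested. At 3 libraries a side and 13875942 to 14532720 reads with both agents, genes near the limit of a count of 0 carry little information.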

Other observations

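The cell type lists of blood and vessel cells gave values that enter no comparison above. Of the erythroid list 10 of 13 genes tested were lower with both agents than in control, with a median log2 fold change of -0.17, and the summed level was 1405 to 1527 CPM with both agents, against 1868 to 2394 CPM in control. Hba-a1, a globin chain of red cells and one of near-identical copies, was at 1778, 1512 and 1573 FPKM with both agents, against 2177, 2661 and 2849 FPKM in control (log2 fold change -0.68 ± 0.28 SE, adjusted p = 0.471, edgeR). Its groups did not overlap. Jchain, the joining chain of secreted antibodies, was at 31.2, 18 and 14.4 FPKM with both agents, at 24.4, 22 and 13 FPKM with AOS alone, at 9.37, 11.3 and 17 FPKM with busulfan alone, and at 3.54, 13.9 and 5.04 FPKM in control (adjusted p = 0.439 against control). The endothelial list had 15 of 20 higher and a median of 0.16, and the macrophage list 13 of 18 and a median of 0.22, with 0 members called in either by edgeR, DESeq2 or limma (1 endothelial and 0 macrophage genes at an unadjusted p under 0.05 in edgeR).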
